A study of Mus musculus with 12 samples.

Results

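The nuclear genes for the subunits of respiratory complexes I, III and IV, for cytochrome c and for the ATP synthase were examined in mouse liver under calorie restriction (CR). They were taken by name from the protein-coding genes of the deposited expression table, as all symbols made of Nduf, 1 of the letters a, b, c, s or v and a number, and all symbols that start with Uqcr, with Cox4 to Cox8 or with Atp5, together with Cyc1 and Cycs. This gave 82 of 24537 genes, of which 37 belong by name to complex I, 9 to complex III, 18 to complex IV, 17 to the ATP synthase and 1 to cytochrome c. The mice were male C57Bl/6J animals, 6 weeks old at the start and housed singly. Con mice ate ad libitum, and CR mice received 30% fewer calories in a fortified form of the same diet, given daily at noon. The paper describes CR mice as eating this ration within a few hours. Fewer calories and the timing of meals therefore cannot be told apart in these comparisons. Livers were taken at day 25 or day 30 from 3 mice of each diet. Mice of both diets had been given heavy water for some days before tissue collection. No genotype, transgene or drug differed between these 4 groups.

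The respiratory chain passes electrons from NADH and other donors to oxygen and uses the energy to pump protons out of the mitochondrial matrix, and the ATP synthase lets the protons back in and makes ATP. Complex I takes electrons from NADH, complex III hands them to cytochrome c, and complex IV, the cytochrome c oxidase, gives them to oxygen. In liver this chain supplies the ATP for gluconeogenesis and the urea cycle and regenerates the oxidized cofactors that fatty acid oxidation needs. Most subunits are encoded in the nucleus, while a few core subunits come from mitochondrial DNA. Genes encoded in mitochondrial DNA were not analysed here.

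Promoters of these genes are known for sites of NRF1, of GABPA and other ETS factors, of YY1 and of ERRalpha, which is encoded by Esrra. Promoter windows, from 250 bases before to 50 bases after the start site in RefSeq on GRCm38.p6, were matched to 67 of the 82 genes. A gene was counted where any of its windows held the letters on either strand. The share of all windows, in contrast, counts single windows, so it is not a share of genes. The NRF1 letters GCGCA, any base and GCGC were found in 22.4% of the 67 genes, against 4.60% of all 32851 windows. Among the 8383 matched genes tested for expression, they were found in 12.3%. The YY1 letters AAGATGGC were found in 16.4%, against 2.75% of all windows and 5.77% of tested genes. The ETS letters CCGGAAG were found in 20.9%, against 8.86% of all windows and 21.4% of tested genes, and the ERRalpha letters TCAAGGTCA in 1.49%, against 0.423% and 0.346%. A match is a run of letters and not a measured binding site. Apart from windows on 1 chromosome, which were left out of this step, 6 genes had a window with 2 or more of the motifs. In these windows, no matches of different motifs overlapped. The 4 windows below are shown because each holds more than 1 match, in capitals and in either orientation. Atp5g3, at chr2:73911277-73911576, and Atp5h, at chr11:115419870-115420169, belong to genes that were higher under CR at day 30. Cox6a1, at chr5:115348909-115349208, and Ndufs6, at chr13:73328433-73328732, belong to genes that were not called at either day. All 4 lie on the minus strand and are written 5′ to 3′.
Atp5g3: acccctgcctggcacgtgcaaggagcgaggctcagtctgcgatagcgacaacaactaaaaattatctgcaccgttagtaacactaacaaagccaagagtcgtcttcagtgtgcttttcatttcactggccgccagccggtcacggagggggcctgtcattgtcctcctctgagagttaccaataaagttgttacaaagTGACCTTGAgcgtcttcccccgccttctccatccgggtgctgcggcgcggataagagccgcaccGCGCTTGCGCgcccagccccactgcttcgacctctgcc
Atp5h: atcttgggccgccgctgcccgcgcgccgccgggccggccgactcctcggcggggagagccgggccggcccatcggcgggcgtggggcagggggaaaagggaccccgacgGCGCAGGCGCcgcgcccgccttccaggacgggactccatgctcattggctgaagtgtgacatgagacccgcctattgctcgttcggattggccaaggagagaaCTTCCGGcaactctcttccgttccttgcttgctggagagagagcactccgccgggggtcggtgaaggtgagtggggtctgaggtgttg
Cox6a1: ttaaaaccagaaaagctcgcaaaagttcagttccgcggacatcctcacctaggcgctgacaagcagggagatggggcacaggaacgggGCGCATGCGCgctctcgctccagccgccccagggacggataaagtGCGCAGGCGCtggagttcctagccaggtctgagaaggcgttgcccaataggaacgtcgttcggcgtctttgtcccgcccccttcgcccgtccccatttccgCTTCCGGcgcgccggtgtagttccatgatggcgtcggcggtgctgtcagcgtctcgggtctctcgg
Ndufs6: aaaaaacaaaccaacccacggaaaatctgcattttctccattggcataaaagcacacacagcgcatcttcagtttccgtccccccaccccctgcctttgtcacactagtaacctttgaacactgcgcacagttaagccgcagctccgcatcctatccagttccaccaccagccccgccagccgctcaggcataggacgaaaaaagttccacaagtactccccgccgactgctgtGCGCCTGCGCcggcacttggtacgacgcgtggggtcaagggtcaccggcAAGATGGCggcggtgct
Atp5g3 is the only gene of the 67 with an ERRalpha match. The match is the reverse complement TGACCTTGA with its first base at position -52, counted with the start site as 0. Atp5g3 also carries an NRF1 match at position 12. Atp5h carries NRF1 letters at -141 and ETS letters at -38. Cox6a1 carries NRF1 letters at -162 and -117 and ETS letters at -16, and Ndufs6 carries NRF1 letters at -16 and YY1 letters at 33. At least 1 of the 4 motifs was present in 12 of 25 matched genes that rose at day 30 (48%) and in 21 of 38 matched genes that were tested and not called (55.3%).

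Expression was measured as FPKM, the reads on the exons of a gene scaled to the length of the exons and to the mapped reads of the library. The 12 libraries held 15748739 to 23345734 reads, recovered from the steps of the FPKM values, and 78.1% to 84.3% of these lay on exons. CR was compared with Con on the scale of log2(FPKM + 1) with limma in the 10593 genes that reached an FPKM of 1 in at least 3 libraries, and a gene was called higher or lower where its p, adjusted over these genes by Benjamini-Hochberg, was under 0.1. Fold changes are log2 differences, CR minus Con, of 3 mice per group, given with their SE. The SE comes from the spread pooled over all 4 groups, which limma draws toward that of genes of similar level. In the main fit a gene therefore has the same SE at both days, and it is not the spread of that day alone. Whole liver was sequenced, so that a change in the number of hepatocytes and a change of RNA per hepatocyte cannot be told apart. Of 6 hepatocyte markers, 5 were found in the table, and their summed FPKM was 42593 to 49458 in Con and 48199 to 51423 in CR mice at day 25, and 35554 to 44352 in Con and 51779 to 62185 in CR mice at day 30. Most of this sum is Alb, which rose at day 30 (0.64 ± 0.14, adjusted p = 0.00791), as did Cps1. The list was mixed, with overlapping diets for Hnf4a and Ttr at day 30 (0.08 ± 0.12 and 0.12 ± 0.15, adjusted p = 0.704 and 0.605) and all CR mice below the Con mice for Apoa1 (-0.23 ± 0.14, adjusted p = 0.261). The markers of lymphocytes were each under 1 FPKM in every library. Of the 6 markers of Kupffer cells, 4 fell at day 25, with sums of 38.6 to 63.1 in Con and 23.9 to 31.6 in CR mice, and at day 30 the sums overlapped (33.1 to 49.4 and 33.0 to 44.1). Marco, of the same list, rose at day 30 (0.79 ± 0.23, adjusted p = 0.0349), and at day 25 its value was 0.37 ± 0.23 (adjusted p = 0.338). The sums of 5 stellate cell markers were 48.9 to 56.5 in Con and 59.6 to 62.1 in CR mice at day 25, and 44.3 to 54.0 in Con and 61.5 to 75.8 in CR mice at day 30, where 3 of 4 tested rose. Those of 5 endothelial markers overlapped at day 25 (30.5 to 45.1 and 37.6 to 46.7) and were 29.0 to 31.9 in Con and 38.0 to 43.1 in CR mice at day 30, where 2 rose. Of all tested genes, 5.6% were called higher and 9.34% lower at day 25, and 8.33% higher and 16.4% lower at day 30. The part of these markers in the results was not tested. Skeletal muscle markers summed to 9.17 FPKM in CR replicate 2 at day 25 and to 3.10 in CR replicate 3 at day 30, against at most 0.12 in the other libraries.

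The reads on all 82 genes together made up about 1 in 100 exon reads of a liver. At day 25, this share was 0.961%, 1.15% and 1.02% in Con replicates 1 to 3 and 1.09%, 1.31% and 1.24% in CR replicates 1 to 3. At day 30, it was 1.04%, 1.02% and 1.01% in the Con mice and 1.38%, 1.31% and 1.10% in CR replicates 1 to 3. The diets overlapped at day 25 and stood apart at day 30, where CR replicate 3 lay closest to the Con mice. The mean was 1.04% ± 0.0967 (SD, n = 3) in Con and 1.21% ± 0.112 in CR mice at day 25 (2-sided exact permutation test, p = 0.2). For each replicate number of day 25 the CR mouse had the larger share, although the labels do not say that same-numbered mice were paired. At day 30 the mean was 1.02% ± 0.0116 in Con and 1.26% ± 0.145 in CR mice (p = 0.1, exact, the smallest value that 3 against 3 mice allow), so that neither day passed a threshold of 0.05. In 3 of the 4 groups, the mouse with the largest share of reads on exons also had the largest share of reads on these genes (83.6% in Con replicate 2 and 84.3% in CR replicate 2 at day 25, and 80.6% in a Con mouse at day 30). The group means of reads on exons were 81.0% ± 2.78 in Con and 82.1% ± 1.88 in CR mice at day 25, and 79.4% ± 1.18 in Con and 81.5% ± 0.895 in CR mice at day 30 (exact permutation test, p = 0.6 and 0.2). The part of the reads on exons in the results was not tested beyond the fit with this covariate given below.

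**Figure D1:**
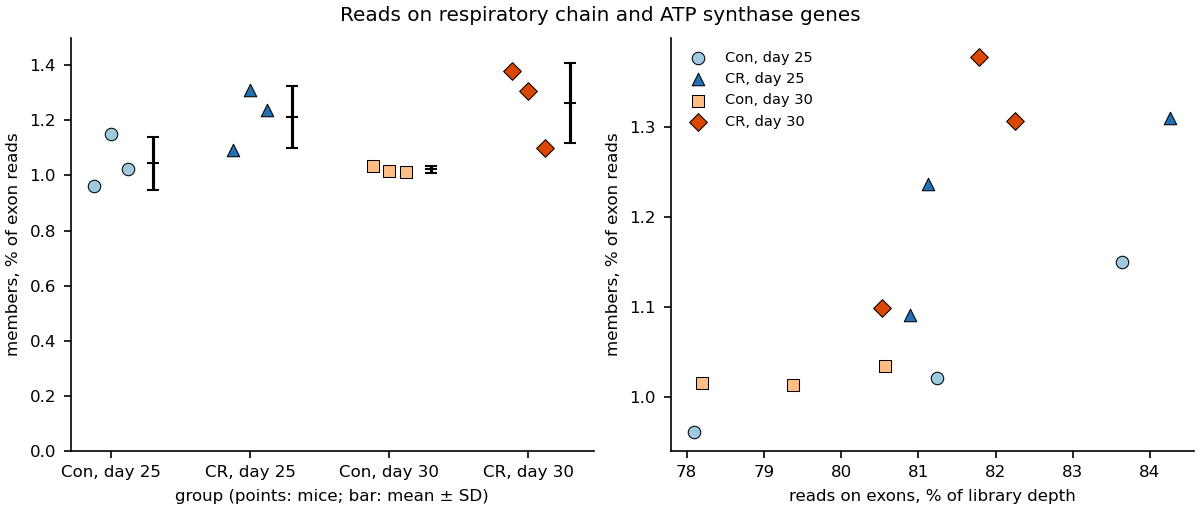
Percent of exon reads on the 82 respiratory chain and ATP synthase genes, by group with the mean ± SD of 3 mice (left) and against the percent of each library's reads that lie on exons (right); each point is 1 mouse. At day 30 the CR mice, at 1.10% to 1.38%, lie above the Con mice, at 1.01% to 1.04%, and at day 25 the diets overlap.

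Of the 82 genes, 75 passed the filter on low values and were tested, and 72 of them had an FPKM of at least 1 in all libraries. The 7 genes left out were Cox4i2, Cox6a2, Cox7b2, Cox8b, Cox8c, Atp5g2 and Atp5l, mostly isoforms of other tissues, and Cox6b2 passed the filter through Con mice alone. Atp5l was listed at 0.192 to 0.701 FPKM. Of its 50-base windows, 68.5% also occur in 13 other annotated genes, 12 of them processed pseudogenes, so that its level is uncertain. Levels were high, with 68 genes at a mean FPKM of at least 10 and 32 genes at 100 or more in every library.

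At day 25, the log2 fold change was above 0 for 71 of the 75 genes, with a median of 0.22, while the median of all 10593 genes was -0.04. Few of these differences passed the test. Uqcrb and Ndufc2 rose, against a background of 5.6% of all tested genes called higher, and Atp5s fell, against a background of 9.34% called lower. The 2 genes are 2.67% of the 75, which is below the background. With the replicate number as a block, which pairs same-numbered mice at day 25, 5 genes rose (Uqcrb, Ndufc2, Atp5sl, Atp5b and Atp5k). All CR mice lay above all Con mice for 10 of the 75 genes, against 10.2% of all tested genes, and below for 1 gene, against 18%. The count of 2 became 0 without Con replicate 1 or 3 or without CR replicate 2 or 3 of day 25, and also without 2 of the 3 Con mice of day 30, which share the estimate of the spread. It became 5 without Con replicate 2 of day 25, and 1 without the remaining Con mouse of day 30 or CR replicate 2 of day 30.

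At day 30, the log2 fold change was again above 0 for 71 of the 75 genes, and the median was 0.34, against -0.07 for all genes. Under CR 30 of the 75 genes (40%) rose, against a background of 8.33%, and no gene fell, against a background of 16.4%. These 30 were 12 of 37 genes of complex I, 5 of 9 of complex III, 4 of 13 tested of complex IV and 9 of 15 tested of the ATP synthase. All CR mice lay above all Con mice for 36 genes, against 12.1% of all genes, and below for 1 gene, against 24.3%. The rises were small. None of the 75 genes reached an absolute log2 fold change of 1 together with the adjusted p at either day, while 1.48% of all genes did so at day 25 and 2.21% at day 30. Among all genes, 37.5% of the called genes were higher at day 25 and 33.7% at day 30, and with median-ratio scaling these shares were 53.8% and 51.6%, with 13 and 47 of the 75 genes called higher. With quantile normalization, 47.8% and 50.7% of the called genes were higher, with 4 and 37 of the 75.

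The count at day 30 rested on the individual mice. CR replicate 3 was the lowest of the 3 CR mice of day 30 for 72 of the 75 genes, and without it 44 genes rose. Without CR replicate 1 or CR replicate 2, only 5 genes rose in each case, and without 1 of the 3 Con mice the count was 8, 8 or 11. Leaving out Con replicate 3 of day 25, which shares the estimate of the spread, gave 20. With the percent of reads on exons as a covariate, a fit added after the data were seen, 10 genes rose at day 30 and the median log2 fold change was 0.19, against a background of 6.86% called higher, and 3 genes rose at day 25 with a median of 0.14, against a background of 6.42%.

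The median log2 fold change was larger at day 30 than at day 25, and 63 of the 75 genes followed this order. The test of the difference between the days did not call any of the 75 genes with limma, nor did voom on the recovered reads, and none had an unadjusted p under 0.05, while 1 of all tested genes was called (0.00944%). A larger CR effect at day 30 was therefore not shown for any single gene. The median of the differences between the days was 0.11.

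**Figure D2:**
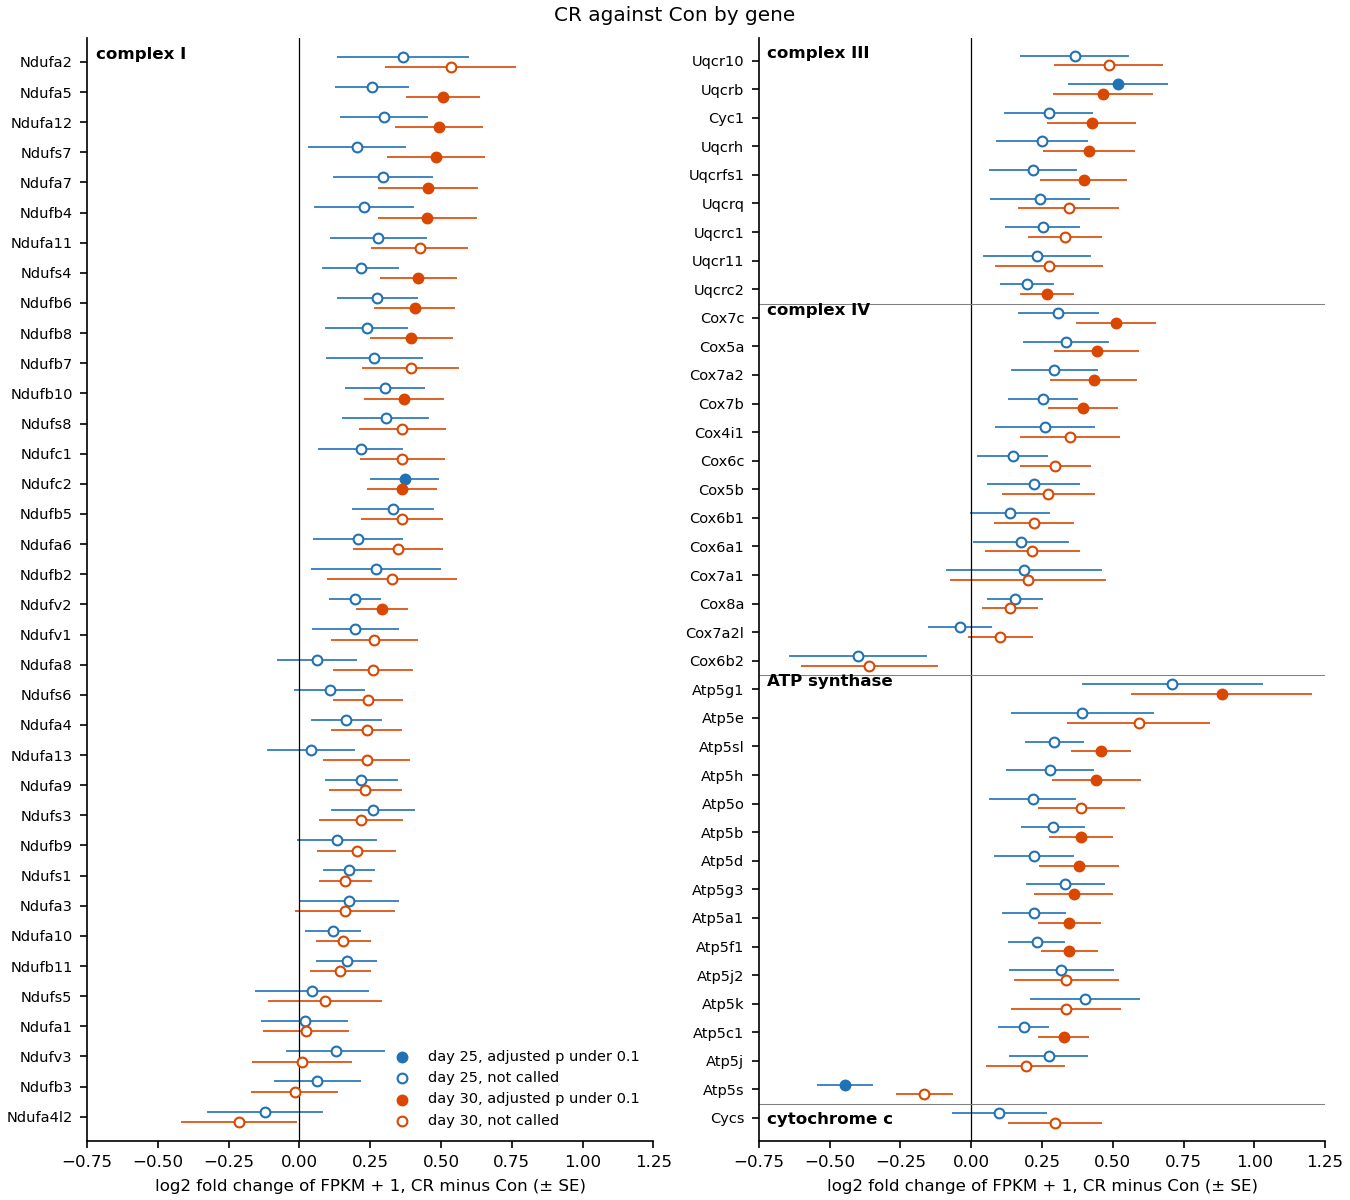
Log2 fold change of FPKM + 1, CR minus Con, with its SE, for 74 of the 75 tested genes by complex, at day 25 (blue) and day 30 (orange); filled points have an adjusted p under 0.1. Nearly all points lie right of 0 at both days, with 3 filled at day 25 and 29 at day 30.

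**Figure D3:**
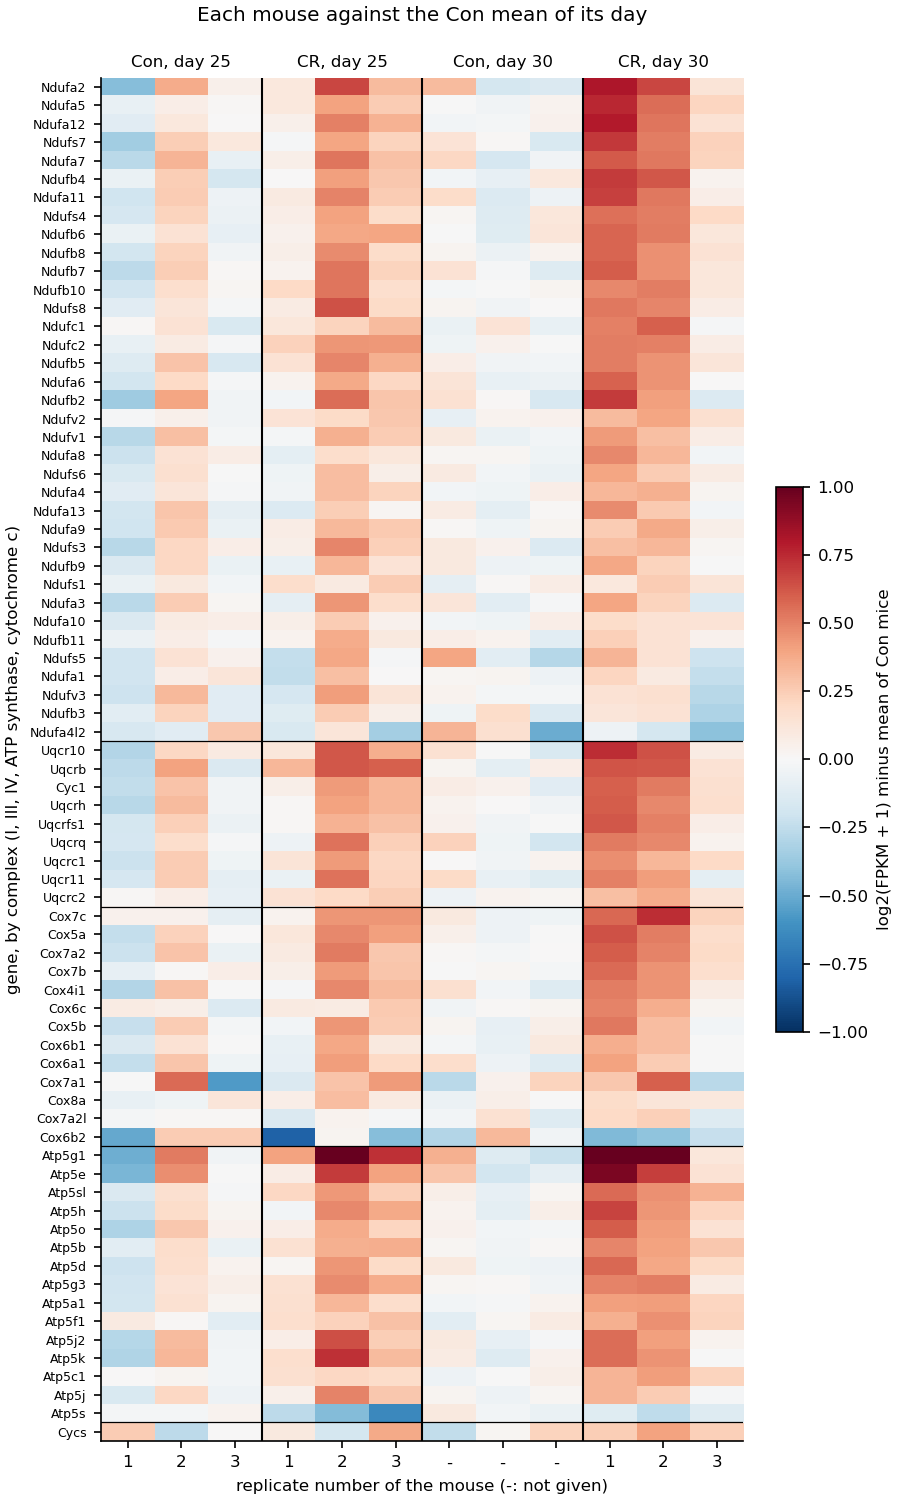
Difference of log2(FPKM + 1) from the mean of the Con mice of the same day for 74 of the 75 genes (rows, by complex) and 12 mice (columns); red is higher and blue lower. CR replicates 1 and 2 of day 30 and CR replicate 2 of day 25 are the reddest columns, and CR replicate 3 of day 30 is paler.

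Complex I was represented by 37 genes, with summed FPKM of 3162, 4115 and 3534 in Con and 3596, 4700 and 4122 in CR mice at day 25, and of 3552, 3323 and 3379 in Con and 4710, 4441 and 3521 in CR mice at day 30. The sum was 14.9% higher under CR at day 25 and 23.6% higher at day 30, and in both cases the diets overlapped. The median log2 fold change was 0.21 at day 25 and 0.33 at day 30. Of the 7 core subunits encoded in the nucleus, which carry the flavin and the iron-sulfur clusters or bind ubiquinone, 3 rose at day 30, Ndufs7 among them, and of the 30 accessory genes, 9 rose.

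Ndufs7 (chr10:80249452-80256792), a core subunit that holds the last iron-sulfur cluster before ubiquinone, measured 67.7, 103 and 92.9 in Con mice and 85.7, 114 and 101 in CR mice at day 25 and 82.6, 75.6 and 67.2 in Con mice and 123, 107 and 87.8 in CR mice at day 30, all in FPKM. Here and in what follows, values are FPKM in the order of replicates 1 to 3, or of the table for the Con mice of day 30, which carry no number, and positions are those of the deposited table on mm10. The diets overlapped at day 25 and were apart at day 30, where the log2 fold change was 0.48 ± 0.17 (limma, adjusted p = 0.0752). Ndufs1, the largest core subunit, measured 37.5, 42.2 and 38.5 in Con mice and 44.6, 42.0 and 47.1 in CR mice at day 25 and 40.5, 43.6 and 45.5 in Con mice and 46.5, 51.8 and 47.2 in CR mice at day 30. It did not pass the test at either day, with log2 fold changes of 0.17 ± 0.09 (adjusted p = 0.268) and 0.16 ± 0.09 (adjusted p = 0.252), although the CR mice of day 30 all lay above the Con mice. Ndufv1, which binds NADH and the flavin, measured 74.6, 112 and 89.7 in Con mice and 89.8, 117 and 109 in CR mice at day 25 and 89.0, 79.4 and 81.6 in Con mice and 112, 103 and 87.5 in CR mice at day 30, with overlapping diets and log2 fold changes of 0.20 ± 0.15 and 0.26 ± 0.15 (adjusted p = 0.463 and 0.256).

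The accessory subunits of complex I, which surround the core without taking part in electron transfer, held the largest rises of the complex. Ndufa5 (chr6:24518664-24527685), a subunit of the matrix arm, measured 106, 118 and 113 in Con mice and 121, 149 and 134 in CR mice at day 25 and 107, 104 and 109 in Con mice and 181, 157 and 124 in CR mice at day 30. The CR mice lay above the Con mice at both days, and the log2 fold change was 0.26 ± 0.13 at day 25 (adjusted p = 0.25) and 0.51 ± 0.13 at day 30 (adjusted p = 0.0216). Ndufa12 (chr10:94199009-94220948), also of the matrix arm, measured 39.4, 46.0 and 42.9 in Con mice and 44.3, 60.9 and 54.5 in CR mice at day 25 and 41.3, 41.7 and 43.6 in Con mice and 73.9, 61.8 and 46.8 in CR mice at day 30. It rose by 0.49 ± 0.16 on the log2 scale at day 30 (adjusted p = 0.0489), but 53.8% of its 50-base windows also occur in 1 other annotated gene, so that its count is uncertain.

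Ndufc2 (chr7:97400003-97407800), a subunit of the membrane arm, was called at both days and shares no window with another gene. It measured 72.1, 80.7 and 75.6 in Con mice and 89.6, 104 and 103 in CR mice at day 25 and 82.6, 87.6 and 84.9 in Con mice and 121, 121 and 89.7 in CR mice at day 30. At each day all 3 CR mice were above all 3 Con mice, with log2 fold changes of 0.37 ± 0.12 (adjusted p = 0.0803) and 0.36 ± 0.12 (adjusted p = 0.0639). In fits with another scaling, another filter or a mouse left out, the call of Ndufc2 was lost in 10 of 26 alternatives at day 25 and in 9 of 26 at day 30. The lowest values at day 30 under complex I were those of Ndufa4l2, Ndufb3 and Ndufv3, with log2 fold changes of -0.21 ± 0.21, -0.02 ± 0.15 and 0.01 ± 0.18 that did not pass the test.

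Complex III was represented by 9 genes, all with log2 fold changes above 0 at both days, and medians of 0.25 at day 25 and 0.40 at day 30. Their summed FPKM was 1146, 1566 and 1289.7 in Con and 1367, 1835 and 1626 in CR mice at day 25, and 1339, 1236 and 1198 in Con and 1859, 1756 and 1333 in CR mice at day 30. The diets overlapped at day 25, and at day 30 by a single pair of mice. Of the 4 genes for the core proteins and the catalytic subunits, 3 rose at day 30, and of the 5 genes for small subunits, 2 rose at day 30 and 1 at day 25.

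Cyc1 (chr15:76343523-76345934), which codes for cytochrome c1 and passes electrons on to cytochrome c, measured 101, 147 and 117 in Con mice and 125, 162 and 152 in CR mice at day 25 and 121, 118 and 106 in Con mice and 174, 165 and 129 in CR mice at day 30. It rose at day 30 with the diets apart, by 0.43 ± 0.16 (adjusted p = 0.0852), and at day 25 the value was 0.27 ± 0.16 (adjusted p = 0.309). Uqcrfs1, the Rieske iron-sulfur protein, measured 112, 149 and 121 in Con mice and 128, 161 and 155 in CR mice at day 25 and 127, 120.1 and 123 in Con mice and 189.9, 175 and 129 in CR mice at day 30. Its log2 fold change of 0.40 ± 0.16 at day 30 lay at the edge of the call (adjusted p = 0.0997), and that of Uqcrc1, a core protein, just outside it (0.33 ± 0.13, adjusted p = 0.102). Uqcrc1 measured 114, 158 and 129 in Con mice and 144, 178 and 153 in CR mice at day 25 and 129.9, 127 and 133 in Con mice and 179, 164 and 149 in CR mice at day 30, so that its diets too were apart at day 30. Both genes had similar values, and the threshold fell between them.

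Uqcrb (chr13:66900621-66905350), a small subunit next to the ubiquinone site, was the other gene called at both days. It measured 46.7, 74.6 and 50.6 in Con mice and 70.9, 87.0 and 85.4 in CR mice at day 25, where Con replicate 2 lay above CR replicate 1, and 63.7, 58.1 and 65.4 in Con mice and 97.1, 96.4 and 68.9 in CR mice at day 30, where the diets were apart. The log2 fold changes were 0.52 ± 0.18 (adjusted p = 0.0896) and 0.47 ± 0.18 (adjusted p = 0.0922). Of its 50-base windows, 43.2% also occur in 4 other annotated genes, all processed pseudogenes, and its call was lost in 13 of 26 alternatives at day 25 and in 12 of 26 at day 30.

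Cycs codes for the cytochrome c of somatic cells, the carrier between complexes III and IV. It is listed at low FPKM here, with 1.55, 0.784 and 1.15 in Con mice and 1.28, 0.894 and 1.77 in CR mice at day 25 and 1.29, 1.76 and 2.18 in Con mice and 2.23, 2.59 and 2.22 in CR mice at day 30. The diets overlapped at day 25 and were apart at day 30, but the log2 fold changes of 0.10 ± 0.17 and 0.30 ± 0.17 did not pass the test (adjusted p = 0.767 and 0.244). Of the windows of Cycs, 28.2% also occur in 43 other annotated genes, 10 of them processed pseudogenes, and 43 to 159 reads per library were counted for it. With the percent of reads on exons as a covariate, Cycs was called at day 30 (log2 fold change 0.49 ± 0.14, adjusted p = 0.0364).

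Complex IV was represented by 18 genes, of which 13 were tested, with medians of 0.19 at day 25 and 0.27 at day 30. The summed FPKM was 2035, 2611 and 2252 in Con and 2285, 2986 and 2686 in CR mice at day 25, and 2265, 2139 and 2132 in Con and 3001, 2802 and 2269 in CR mice at day 30. At day 30 all CR mice were above the Con mice, CR replicate 3 only just. Cox5a, Cox7a2, Cox7b and Cox7c rose at day 30, no gene was called at day 25, and none fell.

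Cox5a (chr9:57521232-57532426), which binds at the matrix face of the oxidase, measured 123, 171 and 145 in Con mice and 157, 203 and 193 in CR mice at day 25 and 156, 145 and 149.9 in Con mice and 234, 215 and 169 in CR mice at day 30. The diets overlapped at day 25 and were apart at day 30, with log2 fold changes of 0.33 ± 0.15 (adjusted p = 0.195) and 0.44 ± 0.15 (adjusted p = 0.0656). Cox7c (chr13:86044798-86046795), a small membrane subunit, is listed at 1.71, 1.72 and 1.47 in Con mice and 1.70, 2.57 and 2.58 in CR mice at day 25 and 1.87, 1.58 and 1.60 in Con mice and 2.99, 3.47 and 2.12 in CR mice at day 30. Its rise at day 30, 0.51 ± 0.14 (adjusted p = 0.0292), rests on 11 to 31 reads per library, and 53% of its windows also occur in 3 other annotated genes, so that its level and its change are uncertain.

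**Figure D4:**
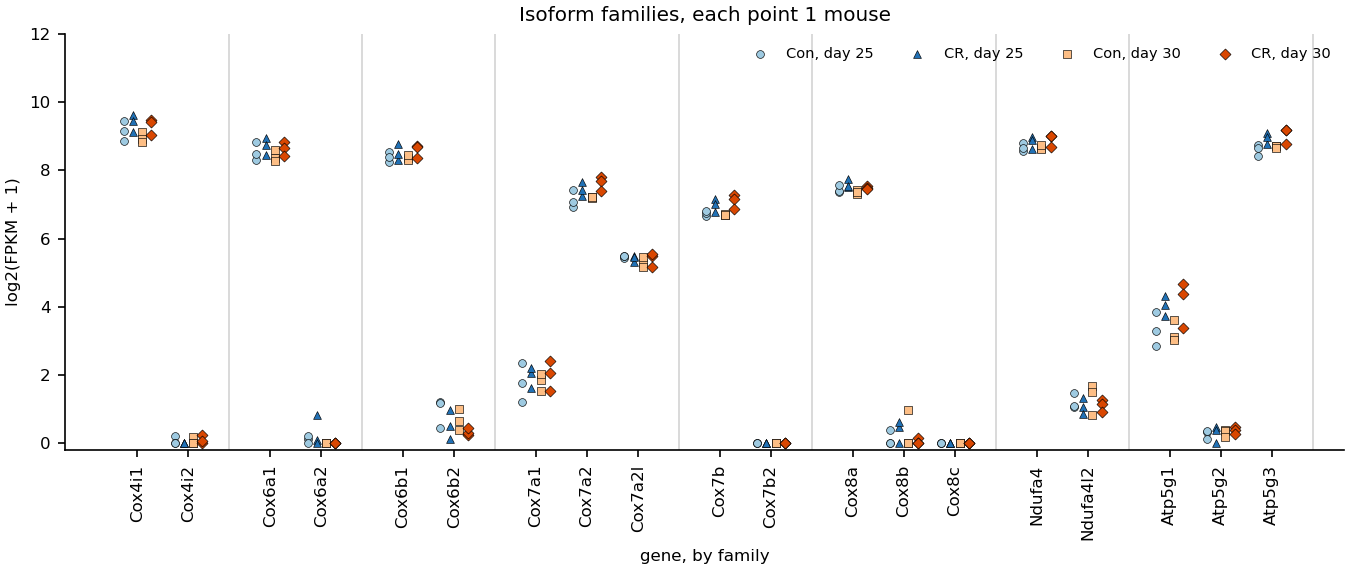
Log2(FPKM + 1) of the genes of 8 isoform families in each mouse, by group. In each family 1 gene lies far above the others, except for Cox7a2 and Cox7a2l, and the CR points of day 30 lie above the Con points of day 30 for Cox7a2, Cox7b, Cox8a and Atp5g3.

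Several subunits exist as isoforms made in different tissues, and in each family the liver used 1 gene in the main. Levels here are FPKM, which take the exon length into account. Cox4i1 (chr8:120668320-120674209), the common form of subunit 4, measured 459, 691 and 563 in Con mice and 558, 786 and 699.7 in CR mice at day 25 and 553, 487 and 454 in Con mice and 709, 679.8 and 526 in CR mice at day 30, at least 99.97% of the family in each mouse. The diets overlapped at both days, with log2 fold changes of 0.26 ± 0.18 and 0.35 ± 0.18 (adjusted p = 0.398 and 0.194). Cox4i2, the form of lung and of oxygen sensing, had 0 to 3 reads per library.

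Cox6a1, the form of liver, measured 314, 449 and 359 in Con mice and 348, 493 and 425 in CR mice at day 25 and 385, 329 and 311 in Con mice and 449, 405 and 339 in CR mice at day 30. The diets overlapped, and the log2 fold changes were 0.18 ± 0.17 and 0.22 ± 0.17 (adjusted p = 0.559 and 0.401). Cox6a2, the form of heart and skeletal muscle, had 8 reads in CR replicate 2 of day 25, the mouse with the largest sum of skeletal muscle markers, and at most 2 reads in any other mouse, CR replicate 3 of day 30 with its muscle markers included. Cox6b1 measured 302, 370.0 and 333 in Con mice and 317, 438 and 357 in CR mice at day 25 and 325, 312 and 351 in Con mice and 422, 408 and 329 in CR mice at day 30, with log2 fold changes of 0.14 ± 0.14 and 0.22 ± 0.14 that did not pass the test (adjusted p = 0.591 and 0.299). Cox6b2, the form of testis, had 1 to 11 reads per library. It measured 0.355, 1.30 and 1.29 in Con mice and 0.103, 0.968 and 0.433 in CR mice at day 25 and 0.319, 1.02 and 0.58 in Con mice and 0.187, 0.224 and 0.373 in CR mice at day 30, and no comparison is drawn from it, since no CR mouse reached the minimum of the filter.

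Among the genes for subunit 7a, Cox7a2, the liver form, made up 72.9% to 82.4% of the summed FPKM of the family. It measured 121, 172 and 134 in Con mice and 149.8, 202 and 169.9 in CR mice at day 25 and 147, 144 and 146 in Con mice and 222, 206 and 167 in CR mice at day 30, and rose at day 30 with the diets apart, by 0.43 ± 0.15 (adjusted p = 0.0737). Cox7a2l, a factor of supercomplex formation, measured 42.5, 43.6 and 43.5 in Con mice and 39.0, 44.2 and 42.9 in CR mice at day 25 and 37.9, 43.0 and 35.2 in Con mice and 44.3, 45.7 and 35.2 in CR mice at day 30. Its log2 fold changes were -0.04 ± 0.11 and 0.10 ± 0.11 (adjusted p = 0.87 and 0.569), with overlapping diets, and 19.8% of its windows are shared with another gene. Cox7a1, the form of heart and muscle, measured 2.41, 4.08 and 1.32 in Con mice and 2.10, 3.17 and 3.59 in CR mice at day 25 and 1.90, 2.60 and 3.08 in Con mice and 3.21, 4.29 and 1.90 in CR mice at day 30, on 8 to 30 reads, and its log2 fold changes were 0.19 ± 0.28 and 0.20 ± 0.28 (adjusted p = 0.729 and 0.653).

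Cox7b measured 99.3, 106 and 110.2 in Con mice and 109.8, 141 and 128 in CR mice at day 25 and 103, 105 and 102 in Con mice and 154, 141 and 116 in CR mice at day 30, and rose at day 30 with the diets apart, by 0.39 ± 0.12 (adjusted p = 0.046), while its testis form Cox7b2 was listed at 0 in all mice. Cox8a, the common form of subunit 8, measured 164, 168 and 188 in Con mice and 181, 214 and 184 in CR mice at day 25 and 156, 169 and 162 in Con mice and 185, 176 and 175 in CR mice at day 30. The CR mice lay above the Con mice at day 30, but the log2 fold change of 0.14 ± 0.10 did not pass the test (adjusted p = 0.37). Cox8c, the form of testis, was listed at 0 in all mice. Cox8b, the form of muscle and brown fat, had 8 reads in 1 Con mouse of day 30, and 0 to 3 reads in the other mice. That Con mouse was the only one with all 4 adipocyte markers above 0, with Adipoq at 0.795, Plin1 at 0.312 and Ucp1 at 0.840 FPKM and a sum of 2.33, against sums of at most 0.169 in the other mice. The part of muscle or fat tissue in these reads was not tested.

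Ndufa4, counted by its name under complex I but known as a component of the oxidase, measured 375, 442 and 403 in Con mice and 396, 502 and 474 in CR mice at day 25 and 398, 393 and 425 in Con mice and 510.2, 517 and 413 in CR mice at day 30. The log2 fold changes were 0.17 ± 0.13 and 0.24 ± 0.13, and the diets overlapped (adjusted p = 0.456 and 0.215). Ndufa4l2, its counterpart in low oxygen, measured 1.08, 1.14 and 1.80 in Con mice and 1.08, 1.52 and 0.831 in CR mice at day 25 and 2.19, 1.81 and 0.787 in Con mice and 1.43, 1.23 and 0.894 in CR mice at day 30, with log2 fold changes of -0.12 ± 0.21 and -0.21 ± 0.21 (adjusted p = 0.768 and 0.502).

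Of the genes named for the ATP synthase, 9 of 15 tested rose at day 30, or 8 of 13 without Atp5s and Atp5sl, and the medians were 0.28 at day 25 and 0.36 at day 30. No test compared the complexes with each other. The summed FPKM was 2455, 3264 and 2794 in Con and 3058, 3899 and 3463 in CR mice at day 25, and 2851, 2664 and 2760.1 in Con and 3995, 3767 and 3066 in CR mice at day 30. The sum was 22.4% higher under CR at day 25, with overlap, and 30.8% higher at day 30, with the diets apart. Of the 5 genes for the catalytic F1 part, 4 rose at day 30, and of the 4 genes for the peripheral stalk, 2 rose (Atp5f1 and Atp5h).

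Atp5b (chr10:128083307-128090388), the catalytic beta subunit, had the highest mean FPKM of all these genes (635.9). It measured 533, 647 and 548 in Con mice and 636, 734 and 738 in CR mice at day 25, where Con replicate 2 lay above CR replicate 1, and 555, 535 and 553 in Con mice and 768, 724 and 661 in CR mice at day 30, where the diets were apart. It rose at day 30 by 0.39 ± 0.11 (adjusted p = 0.0338), and at day 25 the value was 0.29 ± 0.11 (adjusted p = 0.131). Atp5a1, the alpha subunit, measured 308, 388 and 355 in Con mice and 389, 438 and 395 in CR mice at day 25 and 331, 335 and 346 in Con mice and 448, 451 and 391 in CR mice at day 30. The CR mice were above the Con mice at both days, and only the value of day 30 passed the test, with 0.22 ± 0.11 (adjusted p = 0.241) and 0.35 ± 0.11 (adjusted p = 0.052). For Atp5a1, the difference between the days itself was not called.

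The proton-driven ring of the synthase is built of subunit c, for which 3 genes code the same mature protein. Atp5g3 (chr2:73908447-73911326) supplied 95.9% to 98.2% of their summed FPKM, and measured 341, 428 and 405 in Con mice and 433, 540.1 and 505 in CR mice at day 25 and 417, 415 and 400.0 in Con mice and 578, 584 and 434 in CR mice at day 30. The CR mice lay above the Con mice at both days, with 0.33 ± 0.14 (adjusted p = 0.16) and 0.36 ± 0.14 (adjusted p = 0.0952), so that Atp5g3 rose at day 30. Atp5g1 (chr11:96072793-96075631) had the largest log2 fold change of the 75 genes. It measured 6.20, 13.5 and 8.85 in Con mice and 12.4, 19.1 and 15.8 in CR mice at day 25 and 11.3, 7.75 and 7.22 in Con mice and 24.4, 20.0 and 9.39 in CR mice at day 30, and the diets overlapped at both days, since Con replicate 2 of day 25 lay above CR replicate 1 and CR replicate 3 of day 30 lay below 1 of the Con mice.

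The log2 fold changes of Atp5g1 were 0.71 ± 0.32 (adjusted p = 0.19) and 0.88 ± 0.32 (adjusted p = 0.078). Of its windows, 66% also occur in 3 other annotated genes, all processed pseudogenes, so that the value is uncertain. Its share of the family was 2.33% ± 0.66 (SD, n = 3) in Con and 3.07% ± 0.32 in CR mice at day 25, and 2.08% ± 0.48 in Con and 3.16% ± 0.98 in CR mice at day 30. Atp5g2 had 0 to 6 reads per library and shares 87.4% of its windows with other genes.

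Both Atp5s and Atp5sl bear the Atp5 name without being structural subunits. Atp5s (chr12:69724962-69744658), which codes for coupling factor B, measured 4.34, 4.34 and 4.54 in Con mice and 3.51, 3.01 and 2.46 in CR mice at day 25 and 4.13, 3.71 and 3.57 in Con mice and 3.42, 3.03 and 3.39 in CR mice at day 30. It was the only gene of the 75 called lower, at day 25, with a log2 fold change of -0.45 ± 0.10 (adjusted p = 0.0167), with all CR mice below the Con mice. At day 30 the CR mice were again below, but the value of -0.17 ± 0.10 did not pass the test (adjusted p = 0.278). Atp5sl, known from the assembly of the membrane arm of complex I, rose at day 30, by 0.46 ± 0.11 (adjusted p = 0.0122), with 18.7, 16.9 and 18.2 in Con mice and 27.0, 25.0 and 23.2 in CR mice. Without both genes, 29 of 73 tested genes rose at day 30 and the medians were still 0.22 and 0.34.

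Several genes of the rule have near-identical copies elsewhere in the genome, and reads from such stretches could have been placed on either copy. Among the 55 tested genes with under 10% of their 50-base windows shared with another annotated gene, 22 rose at day 30, with a median of 0.35, and among the 17 genes with 10% or more, 7 rose, with a median of 0.30. The remaining 3 genes, Atp5g3, Atp5j and Uqcrq, could not be matched to an annotated transcript for this comparison. Subunit genes are also short and abundant, with a median exon length of 664 bases against 2579 in all tested genes. The 606 other tested genes of up to 750 bases had median log2 fold changes of 0.07 at both days, and the 497 others with a mean FPKM above 100 had medians of 0.09 at day 25 and 0.13 at day 30. The part of length and level in the result was not tested.

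Other genes of the pathway were read from lists made by function. Complex II, succinate dehydrogenase, feeds electrons from the citric acid cycle into the chain and is built of 4 subunits. Of these, Sdhb, Sdhc and Sdhd rose at day 30, against a background of 8.33% of all tested genes called higher. None was called at day 25, where the background was 5.6% higher and 9.34% lower. The iron-sulfur subunit Sdhb measured 144, 123 and 147 in Con mice and 225, 202 and 161 in CR mice at day 30, with the diets apart and a log2 fold change of 0.50 ± 0.15 (adjusted p = 0.0443). The membrane anchors Sdhd and Sdhc rose by 0.45 ± 0.12 (adjusted p = 0.028) and 0.37 ± 0.13 (adjusted p = 0.0663). The flavoprotein Sdha, with 157, 157 and 171 in Con mice and 161, 173 and 176 in CR mice, overlapped between the diets (0.07 ± 0.09, adjusted p = 0.627).

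Assembly factors, which build the complexes but are not part of them, lay on both sides of 0. Of 50 tested, 1 was called higher and 1 lower at day 25 and 4 higher and 6 lower at day 30, with medians of 0.04 and -0.00065. These counts are at or below the share of all tested genes, of which 5.6% were called higher and 9.34% lower at day 25 and 8.33% higher and 16.4% lower at day 30, so that the genes named here are single results and not a result about the list. In the complex IV list of 22 genes, Coa6 rose at both days, Cox10 rose at day 30, and 5 genes fell at day 30. Sco2, which delivers copper to the oxidase, measured 39.7, 49.7 and 42.5 in Con mice and 23.8, 25.3 and 35.0 in CR mice at day 25 and 37.6, 32.8 and 39.3 in Con mice and 28.0, 21.5 and 22.2 in CR mice at day 30. All CR mice lay below the Con mice at both days, and Sco2 fell at both, with log2 fold changes of -0.64 ± 0.15 (adjusted p = 0.0226) and -0.60 ± 0.15 (adjusted p = 0.0208). Taco1, the translational activator of the mitochondrial Cox1 mRNA, fell at day 30 (-0.58 ± 0.16, adjusted p = 0.0266), and Coa6, which also serves copper delivery, rose by 0.49 ± 0.17 (adjusted p = 0.0883) and 0.59 ± 0.17 (adjusted p = 0.0324). Of 15 tested complex I factors, Ndufaf5 and Ndufaf6 rose and Ndufaf1 fell at day 30.

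Among 13 regulators of mitochondrial gene expression, 2 were called higher at both days (background 5.6% and 8.33%) and 1 lower at day 30 (background 16.4%). Ppargc1a, the coactivator PGC-1alpha, measured 2.63, 3.58 and 3.10 in Con mice and 7.34, 3.85 and 6.88 in CR mice at day 25 and 1.79, 2.13 and 3.03 in Con mice and 8.22, 3.90 and 6.63 in CR mice at day 30. All CR mice lay above the Con mice, with CR replicate 2 the lowest of the CR mice at both days, and Ppargc1a rose by 0.74 ± 0.24 (adjusted p = 0.0772) and 1.10 ± 0.24 (adjusted p = 0.00998). Esrra, its partner ERRalpha, measured 12.9, 15.9 and 14.9 in Con mice and 17.4, 20.8 and 20.7 in CR mice at day 25 and 14.4, 11.9 and 11.5 in Con mice and 18.1, 19.0 and 16.0 in CR mice at day 30, and rose by 0.41 ± 0.12 (adjusted p = 0.0467) and 0.46 ± 0.12 (adjusted p = 0.0191). Again the diets did not overlap at either day.

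Of the other regulators, Gabpb1 passed the test. Nrf1 had log2 fold changes of -0.16 ± 0.11 and -0.02 ± 0.11 (adjusted p = 0.4 and 0.934), and Gabpa of -0.14 ± 0.14 and -0.16 ± 0.14 (adjusted p = 0.581 and 0.432). Gabpb1, the partner of Gabpa, fell at day 30, with 2.95, 3.86 and 2.97 in Con mice and 1.72, 1.98 and 1.98 in CR mice (-0.55 ± 0.13, adjusted p = 0.0122). Tfam, which packs and transcribes mitochondrial DNA, had values of -0.08 ± 0.10 and -0.001 ± 0.10 (adjusted p = 0.643 and 0.995), and Ppargc1b of 0.08 ± 0.13 and -0.27 ± 0.13 (adjusted p = 0.766 and 0.184).

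Of 15 genes that make coenzyme Q or bring electrons to it, 1 was called higher and 2 lower at day 25, and 1 higher and 3 lower at day 30. These counts are near the backgrounds of 5.6% higher and 9.34% lower at day 25 and of 8.33% and 16.4% at day 30. Sqrdl, which oxidizes sulfide, rose at both days, by 0.37 ± 0.13 (adjusted p = 0.0947) and 0.66 ± 0.13 (adjusted p = 0.00553). Etfdh, which takes electrons from fatty acid oxidation, fell at both days, with log2 fold changes of -0.37 ± 0.12 (adjusted p = 0.0715) and -0.50 ± 0.12 (adjusted p = 0.0149), and measured 111, 119 and 106 in Con mice and 72.5, 89.6 and 75.4 in CR mice at day 30. Pdss2, which makes the tail of coenzyme Q, fell at day 30 (-0.51 ± 0.11, adjusted p = 0.00885), and Gpd2, which brings in electrons from cytosolic NADH, fell at day 25 (-0.43 ± 0.14, adjusted p = 0.0747).

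**Figure D5:**
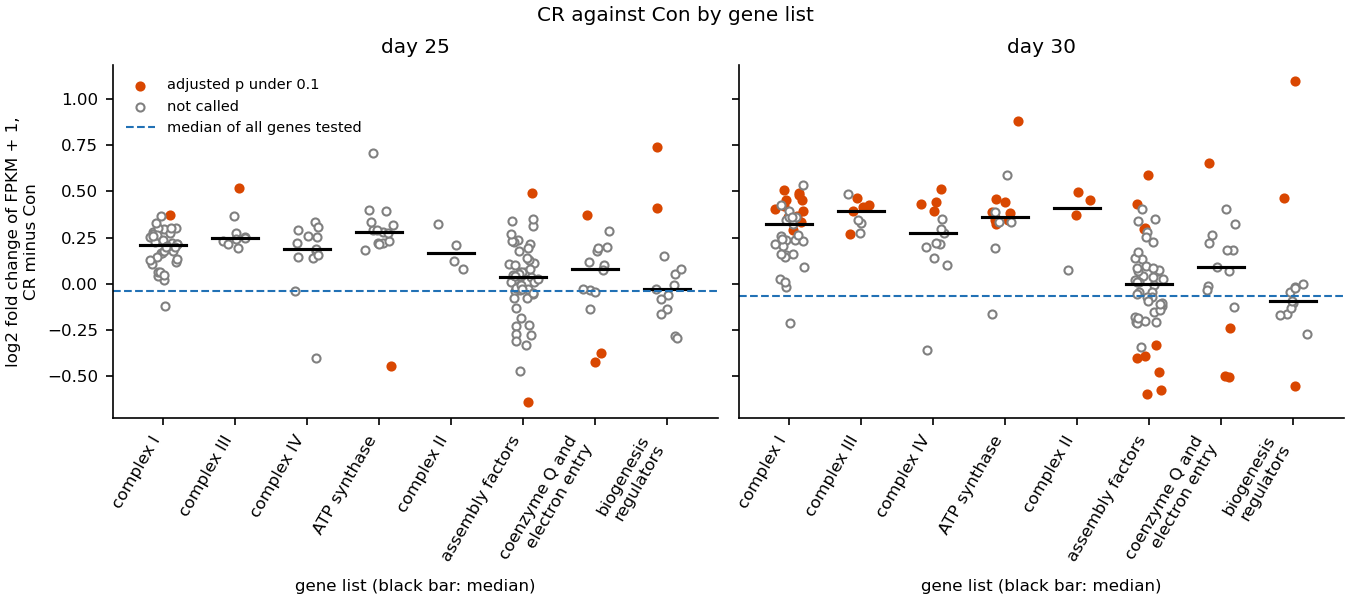
Log2 fold change of FPKM + 1, CR minus Con, of single genes by complex or list at day 25 (left) and day 30 (right); filled points have an adjusted p under 0.1, black bars are medians and the dashed line is the median of all tested genes. The subunits of complexes I to IV and the ATP synthase have medians of 0.27 to 0.41 at day 30, and the assembly factors lie on both sides of 0.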

How the data were processed

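Liver RNA of 12 mice, 3 per diet and day, was sequenced as 100-base read pairs on a single lane. The submitters' processing notes name CASAVA 1.8.2, FastQC, BWA, DESeq2 and the build mm10. The authors deposited FPKM made with HOMER, whose command in the file header counts exon reads, keeps 1 transcript per gene and gives no strand option. BWA does not split reads over introns, which can lower genes with short exons, and reads shared with pseudogenes can be misplaced. Depth was recovered from FPKM steps (100% of 1500 low values per library were whole within 0.1 read), so counting error is small except for genes with few reads.

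FPKM are not counts, so log2(FPKM + 1) was fitted with limma 3.58.1 in R 4.3.3 in 1 model of the 4 groups, with a trend on expression and Benjamini-Hochberg adjustment over all 10593 tested genes; tests are 2-sided. The code was tested on simulated data with 200 changed genes. The fit recovered 0 of them at a log2 change of 0.3, 86 at 0.5 and 189 at 1, with 0, 6 and 21 false calls. A gene that was not called may therefore still have changed by a small amount. In the data at day 30 far more genes were called, 8.33% higher and 16.4% lower, which loosens the adjusted threshold. Recovery in the data can therefore differ from these counts. The p-values of limma weigh a difference between groups against the spread between individual mice. That spread is pooled over the 4 groups and drawn toward that of genes of similar level. Python 3.11.15, pandas 2.3.3, numpy 2.4.6, scipy 1.17.1 and matplotlib 3.10.9 were used. Copies are 50-base windows of GENCODE M21 transcripts found in another gene.

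The genes, lists and tests were chosen with earlier results of these data known. Named are the 6 largest called rises and falls at each day, the isoform families, Cyc1, Cycs, 7 core subunits, up to 4 called genes per list, the main regulators, and a few genes outside this rule (such as Ndufb3, Ndufv3, Atp5sl and Cox10), named after their values were seen. The values of 1 gene are not reported here singly. Replicate numbers of day 25 come from the labels. Between same-numbered Con and CR mice of day 25, deviations from the group means correlated at 0.106 to 0.368. Between mice with different numbers they correlated at -0.287 to 0.0134. As deviations from a group mean cancel out within each group, the second range is not independent of the first. The labels do not say that same-numbered mice belong together. They were taken as pairs only in the block, an alternative to the main fit. Neither the main fit nor the permutation tests paired mice. The Con mice of day 30 could not be tied to a number. Alternatives covered the pseudocount, the filter, scaling, moderation, the groups in the model, thresholds, the block, leaving out mice, and voom on recovered reads; voom with reads on exons as library size and the covariate of reads on exons were added after seeing the data.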

Additional observations from a re-analysis of the deposited data

How the results depend on the processing

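Of the 75 tested genes, 2 rose at day 25 and 30 at day 30, and these counts moved by over 1.5 times under several alternatives. Without the filter on low values they were 0 and 14, with median-ratio scaling 13 and 47, and at an adjusted p under 0.05 they were 0 and 9. At day 25 the count was 5 with TPM and with the replicate block, which holds the mice of day 25 alone (41 at day 30), 4 with quantile normalization and with voom on reads on exons, and 1 with the libraries of that day alone. Where a log2 fold change of 1 or more in size was also required, it was 0 at both days, and the count of genes that fell at day 25 was 0 in place of 1. With the percent of reads on exons as a covariate, 10 genes rose at day 30. Without 1 mouse, the count ranged from 0 to 5 at day 25 and from 5 to 44 at day 30. The medians stayed above 0 in all 26 alternatives, at 0.14 to 0.34 at day 25 and 0.19 to 0.48 at day 30, and no gene was called lower at day 30 or between the days in any. Of 33 single calls, none changed direction, and 5 were lost in at most 1 alternative (Atp5c1, Atp5sl, Cox7c and Ndufa5 at day 30 and Atp5s at day 25). Apart from the count at day 25, the block changed none of these 33 calls. The cause of these differences was not tested. With 3 mice per group, an exact test of a single value cannot go below p = 0.1, and Cox7c, Cox7a1 and Cox6b2 rest on at most 31 reads per library.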

Other observations

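The carriers that exchange ADP, ATP and phosphate across the inner membrane serve the ATP synthase. Slc25a5, a carrier of ADP and ATP, had an FPKM of 92.7, 88.3 and 91.4 in Con mice and 124, 126 and 111 in CR mice at day 30, and Slc25a3, the phosphate carrier, of 145, 144 and 147 in Con mice and 213, 205 and 172 in CR mice. For both, all CR mice lay above all Con mice, and they rose by 0.40 ± 0.10 (limma, adjusted p = 0.0208) and 0.43 ± 0.11 (adjusted p = 0.0247) on the log2 scale. At day 25 the values were 0.28 ± 0.10 (adjusted p = 0.107) and 0.29 ± 0.11 (adjusted p = 0.143). Ucp2, an uncoupling protein homolog that liver holds mainly in its immune cells, fell at day 30, with overlapping diets (-0.47 ± 0.17, adjusted p = 0.0813).

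Of 6 subunits and associated proteins whose symbols lie outside the naming rule, among them Ndufab1 and Atpif1, limma did not call any at either day, and none had an unadjusted p under 0.05. The 76 tested genes for mitochondrial ribosomal proteins, which translate the subunits encoded in mitochondrial DNA, had median log2 fold changes of 0.02 at day 25 and 0.09 at day 30. Of these, 1 gene was lower at day 25, and 1 was higher and 1 lower at day 30. The 65 tested genes for cytosolic ribosomal proteins had medians of 0.25 and 0.43, with 2 (3.08%) and 27 (41.5%) genes higher. Of all tested genes, 5.6% were called higher and 9.34% lower at day 25, and 8.33% higher and 16.4% lower at day 30. These comparisons share their mice with those of the subunit genes, and the lists were not tested against each other.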
